A study of Mus musculus with 6 samples.

Results

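The skin chemokine genes described here are 10 genes chosen by name: Cxcl1, Cxcl2, Cxcl9, Cxcl10, Cxcl12, Cxcl14, Cxcl16, Ccl2, Ccl20 and Ccl27a. All 10 were rows of the deposited table, which lists 17025 genes. RNA-seq was done on epidermal progenitor cells of newborn mice (postnatal day 0), sorted by FACS for integrin α6, the laminin receptor of basal keratinocytes. The control-labelled libraries (3) came from mice with the K14Cre transgene and 1 floxed Ash2l allele (K14Cre,Ash2lF/+), and the 3 cKO-labelled libraries from K14Cre mice with both alleles floxed (K14Cre,Ash2lF/F). Both groups therefore carried Cre, driven by the keratin 14 promoter of basal keratinocytes, and the labels give no other treatment. ASH2L is a core subunit of the complexes that methylate histone H3 at lysine 4, and the series addresses its role in epidermal differentiation, in Notch signalling and in the hair follicle.

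Chemokines are small secreted proteins that attract leukocytes along a gradient by binding G protein-coupled receptors. In skin, some are made by resting keratinocytes and others appear when keratinocytes meet interferon, interleukin-1, TNF or interleukin-17, whose signals reach the chemokine genes through STAT and IRF factors or through NF-kB. CXCL14 and CCL27 are the classic constitutive chemokines of epidermis, CXCL9 and CXCL10 are the interferon-induced ligands of CXCR3, and CXCL1 and CXCL2 are the neutrophil attractants that bind CXCR2.

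The targeted gene went against the labels. Ash2l stood at 12.4, 18.1 and 15.9 FPKM in the control-labelled libraries and at 30.9, 29.5 and 22.9 FPKM in the cKO-labelled ones (log2 difference 0.81, SE 0.19, n = 3 per group; limma adjusted p = 0.0240). FPKM is the fragment count of a gene scaled to gene length and library size. Leaving out control 1, control 3, cKO 1 or cKO 2 ended that call (adjusted p from 0.0564 to 0.0828). The table gives 1 value per gene and no value per exon, so the deletion itself was not checked, and every direction below is that of the labels. The libraries held 31578875 to 36027550 fragments. Keratinocyte markers were abundant in all 6: the 7 basal markers summed to 4878 to 8503 FPKM in the control-labelled libraries and 8002 to 10445 FPKM in the cKO-labelled ones. Among these 7, Krt15 rose (2.23, limma adjusted p = 0.00215) and Itgb4 fell (-1.70, adjusted p = 0.0437). Itga6, the gene of the sorted protein, was at 162, 78.8 and 72.0 FPKM in the control-labelled libraries and 53.6, 53.0 and 19.7 FPKM in the cKO-labelled ones (-1.32, adjusted p = 0.0710). The 6 suprabasal markers summed to 4354 to 6260 FPKM against 34273 to 67283 FPKM, most of it from Krt1 and Krt10. Krt1, Krt10, Krtdap and Flg rose, Lor overlapped between groups, and Sbsn had the opposite sign (-0.43, adjusted p = 0.0847).

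The sequences before the start sites of 4 members are shown. These genes are the interferon-type and neutrophil-type chemokines, whose levels were low or at 0 in the cKO-labelled libraries. Cxcl9 was at 0 in control 2 and 3 as well. Of these 4, only Cxcl10 passed the test described below, and the others were too low to be included in it. Ccl27a, which also passed it, is not printed. Each sequence is the 250 bases upstream of the RefSeq start site on the gene's own strand (build GRCm38.p6, which is not the GRCm39 build named for the deposited table). Capitals mark matches, on either strand, to the core of the interferon-stimulated response element (GAAA on either side of a pair of any bases), TTCNNNGAA (the core of the gamma-activated site), the NF-kB consensus or TGANTCA (AP-1).
Cxcl1, chr5:90890995-90891244, plus strand: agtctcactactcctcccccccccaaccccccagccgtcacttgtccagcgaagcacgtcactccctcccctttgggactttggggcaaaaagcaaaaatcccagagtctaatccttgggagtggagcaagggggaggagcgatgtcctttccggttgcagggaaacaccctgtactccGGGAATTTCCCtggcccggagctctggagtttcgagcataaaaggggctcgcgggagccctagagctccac
Cxcl2, chr5:90903649-90903898, plus strand: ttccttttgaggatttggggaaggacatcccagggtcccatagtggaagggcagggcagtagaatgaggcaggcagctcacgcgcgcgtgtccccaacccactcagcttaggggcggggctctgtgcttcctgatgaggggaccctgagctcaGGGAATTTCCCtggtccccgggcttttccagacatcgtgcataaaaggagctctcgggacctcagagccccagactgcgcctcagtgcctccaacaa
Cxcl10, chr5:92348890-92349139, minus strand: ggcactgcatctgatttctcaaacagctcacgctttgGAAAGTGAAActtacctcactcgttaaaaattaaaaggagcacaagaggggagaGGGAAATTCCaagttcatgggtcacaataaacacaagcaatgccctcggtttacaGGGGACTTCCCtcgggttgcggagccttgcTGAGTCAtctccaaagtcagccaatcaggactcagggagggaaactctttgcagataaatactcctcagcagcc
Cxcl9, chr5:92328080-92328329, minus strand: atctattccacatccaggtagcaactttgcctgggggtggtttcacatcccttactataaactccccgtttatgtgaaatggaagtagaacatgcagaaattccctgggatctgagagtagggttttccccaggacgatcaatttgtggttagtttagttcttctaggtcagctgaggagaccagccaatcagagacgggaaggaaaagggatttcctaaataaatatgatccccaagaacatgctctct

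The neighbouring genes Cxcl1 and Cxcl2 each hold the same GGGAATTTCCC, which starts 71 bases before the start site in Cxcl1 and 97 in Cxcl2; it holds overlapping matches to the NF-kB consensus on both strands. Cxcl10 holds GAAAGTGAAA, which starts 213 bases before its start site, NF-kB matches that start 159, 104 and 103 bases before it (the last pair overlap), and an AP-1 match 74 bases before it. None of these motifs was found in the Cxcl9 window. Over all 32851 RefSeq promoter windows of this length, 7.25% hold the NF-kB consensus, 2.98% the interferon-stimulated response element core, 7.02% TTCNNNGAA and 6.75% TGANTCA. Of the other members with an entry, Ccl20 has an NF-kB match, Cxcl14 holds both interferon-type cores, 1 of 3 Ccl27a start sites has an AP-1 match and Cxcl12 has none. In all, 8 of the 10 members had an entry, and Cxcl16 and Ccl2 had none. A match describes these letters and is not evidence of binding.

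For each of the 10 members the mean FPKM was lower in the cKO-labelled libraries than in the control-labelled ones, with Ccl20 nearly level (24 against 23 fragments in all) and Cxcl9 and Ccl2 listed at 0 in every library labelled cKO. The test covered 11603 genes averaging 1 FPKM or more, and 4 members were among them. Of these 4, Cxcl10 and Ccl27a passed the test and fell (13.6% of all genes tested were called lower), and none rose (5.87% of all genes were called higher). Cxcl16 and Cxcl14 did not pass it. The median difference of the 4 was -1.07 on the log2(FPKM + 1) scale, and that of all genes tested was -0.17. The groups did not overlap for 5 of the 10 members, all lower in the cKO-labelled libraries, where 25% of all 17025 genes were lower without overlap. The 6 members not tested averaged under 1 FPKM. Fitted without that limit, none of them was called by limma (7.87% of all genes were called lower), and limma-voom on whole fragments recovered from the FPKM values also called none (9.81% lower); 2 of the 6 had an unadjusted p under 0.05 in each, against 28.2% and 29.9% of all genes in these fits. In bulk samples, fewer cells that make a transcript and less RNA of it per cell cannot be told apart.

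**Figure D1:**
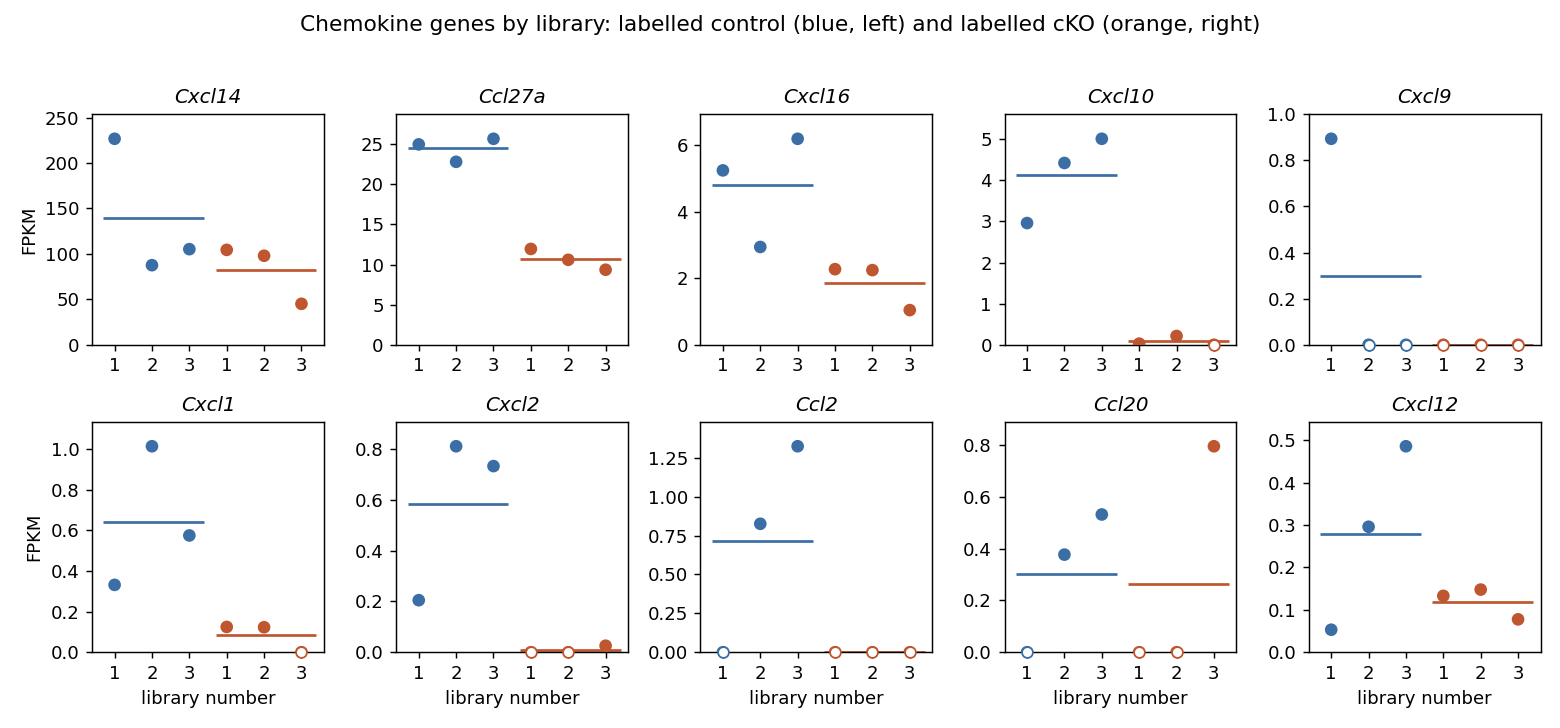
FPKM of each chemokine gene (vertical axis, its own scale in each panel) in the 3 libraries labelled control (blue) and the 3 labelled cKO (orange); points are libraries, bars are group means and open points are values of 0. Ccl27a and Cxcl10 fall into separate ranges by group, Cxcl14 overlaps, and Cxcl9 has a value above 0 in the library labelled control 1 only.

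Cxcl14, a chemokine that resting epithelia make in quantity, was the highest member in every library. It stood at 227, 87.6 and 105 FPKM in control 1, 2 and 3 and at 104, 98.0 and 45.1 FPKM in cKO 1, 2 and 3. Control 1 lay above all the others, cKO 3 below them, and the remaining 4 libraries lay close together across both groups. By mean FPKM it ranked 398th of 17025 genes. It took 72.2 to 86.7% of the summed FPKM of the 10 members in the control-labelled libraries and 80.0 to 88.0% in the cKO-labelled ones. The group means were 140 ± 75.7 and 82.5 ± 32.6 FPKM (SD, n = 3), with a log2 difference of -0.72 (SE 0.42; limma adjusted p = 0.261; exact permutation test, two-sided, p = 0.4). Its direction rested on control 1 and cKO 3: the difference was -0.31 without the first, -0.34 without the second and 0.075 on the 4 libraries left when both were dropped. Genes whose centred values lay nearest to those of Cxcl14 were Cdh3, which encodes P-cadherin of basal and placode keratinocytes (root mean square distance 0.0958 in log2 over 6 libraries), Arhgef3 (0.0992) and Pcsk2 (0.159).

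Ccl27a encodes the keratinocyte chemokine that draws CCR10-bearing T cells to skin. It was the second highest member in every library, with 25.0, 22.8 and 25.7 FPKM in the control-labelled ones and 11.9, 10.6 and 9.35 FPKM in the cKO-labelled ones. The values were tight within each group and did not overlap. The fall was 2.30-fold, from 24.5 ± 1.5 to 10.6 ± 1.3 FPKM (SD, n = 3), a log2 difference of -1.14 (SE 0.15; limma adjusted p = 0.00349; exact permutation p = 0.1, the smallest that 3 against 3 can give). Behind these values were 991 to 1107 fragments per library in the control group and 443 to 528 in the other. The ratio of Cxcl14 to Ccl27a was 9.08, 3.84 and 4.10 in the control-labelled libraries and 8.74, 9.25 and 4.82 in the cKO-labelled ones, and the ranges of the ratio overlapped between groups. In the GRCm38 annotation Ccl27a overlaps Il11ra1 on the other strand, with 8 shared exon bases. Il11ra1 was at 31.0, 27.7 and 29.8 FPKM against 28.7, 24.6 and 10.5 FPKM (adjusted p = 0.263). The paralogue Ccl27b had 0 to 4 fragments per library, and reads that fit both paralogues may have been lost or split in counting.

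Cxcl16, a membrane-anchored chemokine that ADAM10 and ADAM17 release and CXCR6 binds, was at 5.24, 2.94 and 6.19 FPKM in the control-labelled libraries and 2.27, 2.24 and 1.04 FPKM in the cKO-labelled ones. The groups did not overlap, but control 2 lay near cKO 1 and 2. Means were 4.79 ± 1.67 and 1.85 ± 0.70 FPKM (SD, n = 3), and the log2 difference of -1.01 (SE 0.31) did not pass the test (limma adjusted p = 0.0545). It passed without the library labelled control 2 (-1.26, adjusted p = 0.0467). The proteases that release it were at 74.4, 47.0 and 48.5 against 46.8, 51.0 and 57.1 FPKM for Adam10 and at 21.0, 15.8 and 18.8 against 15.6, 17.7 and 24.8 FPKM for Adam17. Their log2 differences were -0.10 (SE 0.20) and 0.045 (SE 0.21), neither past the test, and the sign of each changed with the setting: Adam10 was at 0.12 under median-of-ratios scaling. Cxcl16 shares 18.3% of its exon bases with Zmynd15 on the other strand, a gene at 0.471 to 1.35 FPKM in the control-labelled libraries and 0.243 to 0.759 FPKM in the cKO-labelled ones.

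Cxcl10, the interferon-induced ligand of CXCR3, showed the largest difference of the 4 tested members. Its values were 2.96, 4.42 and 5.01 FPKM in the control-labelled libraries and 0.0270, 0.213 and 0 FPKM in the cKO-labelled ones. It was low but measured in each of the former (103, 161 and 181 fragments) and nearly absent from the latter (1, 8 and 0 fragments). The means were 4.13 ± 1.06 and 0.0801 ± 0.116 FPKM (SD, n = 3), a log2 difference of -2.23 (SE 0.25; limma adjusted p = 0.00188; exact permutation p = 0.1). That scale understates the change of low genes: summed over the group there were 445 against 9 fragments, a ratio per library fragment of 52.6 (95% exact interval 27.5 to 116, counting error only). With a pseudocount of 0.1 FPKM the log2 difference was -4.71, and with 0.01 it was -6.54. Cxcl10 lies within Art3 on the other strand, where 5.91% of its exon bases are shared with an Art3 transcript. Art3 also fell, from 15.6, 6.48 and 9.34 FPKM to 1.41, 1.15 and 0.318 FPKM (-2.52, adjusted p = 0.00398), and its part in the Cxcl10 counts was not tested. Nearest to Cxcl10 by centred values were the interferon-induced gene Xaf1 (distance 0.0308), Defa24 (0.142) and Arid5a (0.177), among 11401 genes searched.

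Cxcl9, the other interferon-type ligand, was at 0.894 FPKM (82 fragments) in the library labelled control 1 and at 0 in the other 5. A count of 0 allows up to 3 fragments, or 0.0287 to 0.0315 FPKM in those 5 libraries. Its single value therefore came from the library in which Cxcl10 was lowest of its group, and the fit without a filter on low values did not call it (adjusted p = 0.482). The neighbouring genes Cxcl1 and Cxcl2 had a common pattern. Cxcl1 was at 0.332, 1.01 and 0.575 FPKM (10, 32 and 18 fragments) against 0.125, 0.123 and 0 FPKM (4, 4 and 0 fragments). Cxcl2 was at 0.205, 0.810 and 0.732 FPKM (7, 29 and 26 fragments) against 0, 0 and 0.0256 FPKM (0, 0 and 1 fragments). Both were without overlap between groups, and control 1 was the lowest of its group in both. The ratios of summed fragments were 7.98 for Cxcl1 (95% exact interval 3.80 to 19.3) and 66.0 for Cxcl2 (11.4 to 2648), for counting error only. Neither was called in the fit without a filter, with a log2 difference of -0.58 (adjusted p = 0.0672) for Cxcl1 and -0.63 (adjusted p = 0.0568) for Cxcl2.

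Ccl2, the monocyte attractant that binds CCR2, was at 0, 0.826 and 1.32 FPKM in the control-labelled libraries (0, 22 and 35 fragments) and at 0 in all 3 labelled cKO. Control 1 was at 0 as well, so the groups overlapped, and 35 of the 57 fragments came from control 3. Ccl20, the ligand of CCR6 on Langerhans cell precursors and interleukin-17-making T cells, was at 0, 0.377 and 0.532 FPKM against 0, 0 and 0.796 FPKM. It was highest in the library labelled cKO 3, with 23 fragments, and 24 against 23 fragments in all gave a ratio of 1.11 (95% exact interval 0.600 to 2.06). In the fit without a filter, neither Ccl2 (adjusted p = 0.189) nor Ccl20 (adjusted p = 0.883) was called.

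Cxcl12 is made mainly by fibroblasts and endothelium and holds CXCR4-bearing cells in place. It was low in these epidermal libraries, at 0.0531, 0.296 and 0.485 FPKM in the control-labelled ones and 0.133, 0.148 and 0.0775 FPKM in the cKO-labelled ones. All 3 values of the second group lay inside the range of the first. Summed levels of the 8 fibroblast markers were 122, 187 and 376 FPKM in the control-labelled libraries and 491, 452 and 207 FPKM in the cKO-labelled ones. Within each group the library with the lowest fibroblast sum was also the lowest in Cxcl12, over 3 libraries a group, and the part of fibroblast RNA in Cxcl12 was not tested. Its differences did not pass the fit without a filter (-0.18, adjusted p = 0.424).

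The 6 inflammatory members together (Cxcl1, Cxcl2, Cxcl9, Cxcl10, Ccl2 and Ccl20) summed to 4.39, 7.45 and 8.18 FPKM in the control-labelled libraries and to 0.152, 0.336 and 0.822 FPKM in the cKO-labelled ones. Fragment totals were 202, 254 and 274 against 5, 12 and 24. Most of those in the control-labelled libraries were from Cxcl10 (103, 161 and 181), and 23 in cKO 3 were from Ccl20. Cxcl10 was the only member of these 6 that was tested, and it was called lower, as were 13.6% of all genes tested. Leukocyte markers were low: the 6 pan-leukocyte genes, Ptprc (CD45) among them, summed to 1.54 to 3.56 FPKM in the control-labelled libraries and 2.29 to 3.47 FPKM in the cKO-labelled ones. Within this list Fcer1g was higher without overlap (10, 0 and 6 against 23, 22 and 34 fragments), and the others overlapped. Of all genes, 10% were higher without overlap. Limma without a filter on low values called Fcer1g (0.79, adjusted p = 0.0393), 1 of 549 genes called higher in that fit. Limma-voom did not call it (adjusted p = 0.161). The 7 Langerhans cell and macrophage markers in the table summed to 1.59 to 6.23 and 1.41 to 5.94 FPKM, and the 4 T cell markers to 0.197 to 1.92 and 0.0213 to 0.195 FPKM. The T cell sums were thus lower without overlap, by a narrow margin. Of these 4 genes only Cd247 was lower without overlap (26, 37 and 45 against 5, 0 and 8 fragments), as were 25% of all 17025 genes. Limma without a filter on low values did not call Cd247 (adjusted p = 0.0552). Cd207, Trac, Trdc and the 6 neutrophil and mast cell markers were not listed under these names. All 6 melanocyte markers fell, with a sum of 2737 to 3142 FPKM against 163 to 351 FPKM. Of 3 Schwann cell markers tested, Sox10 and Foxd3 fell, and the 5 in the table summed to 81.3 to 141 FPKM against 6.89 to 18.8 FPKM. Among all genes tested, 13.6% were called lower. The 6 endothelial markers summed to 4.81 to 6.24 and 1.63 to 7.98 FPKM. Among them Tek (291, 78 and 120 against 0, 13 and 15 fragments) and Pecam1 (125, 82 and 76 against 60, 72 and 4) were lower without overlap. The other endothelial markers overlapped. Limma without a filter called neither Tek (adjusted p = 0.0686) nor Pecam1 (adjusted p = 0.228). Melanocyte and Schwann cell RNA fell between the groups as Cxcl10 and Ccl27a did, and suprabasal RNA rose. The part of these cell types in the falls of Cxcl10 and Ccl27a was not tested.

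**Figure D2:**
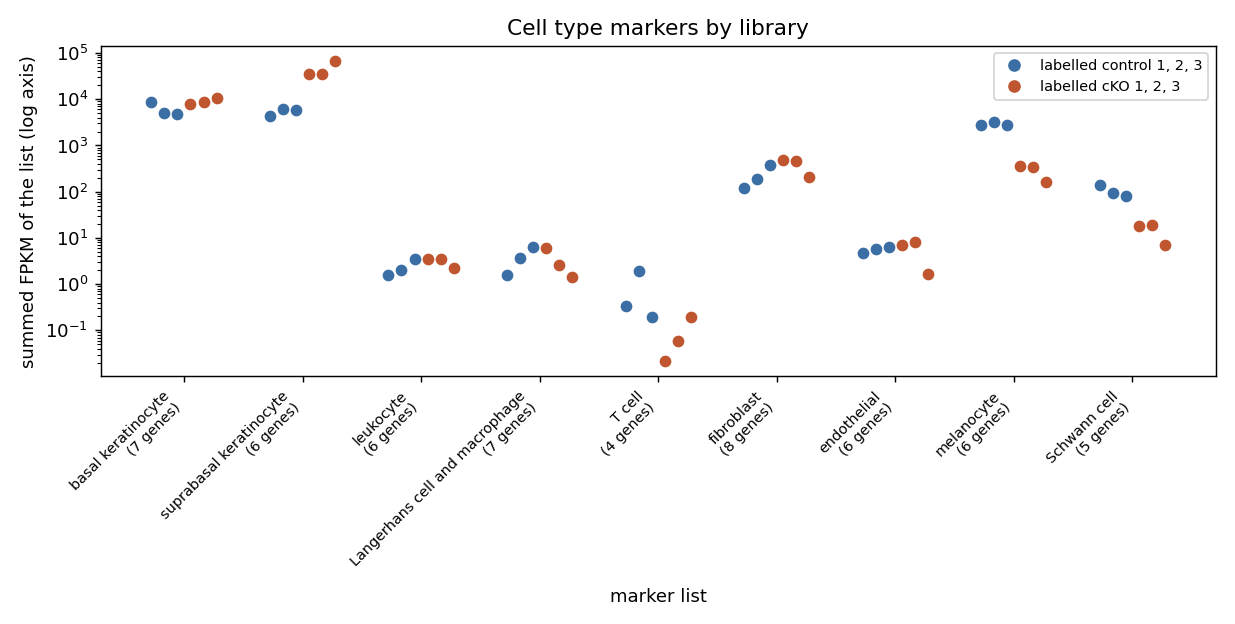
Summed FPKM (log axis) of the markers of each cell type in the 6 libraries, blue for the control-labelled ones and orange for the cKO-labelled ones, in library order from left to right. Melanocyte and Schwann cell sums are lower in all 3 libraries labelled cKO, and suprabasal sums, mostly Krt1 and Krt10, are higher. T cell sums, at most 1.92 FPKM, are also lower, by a narrow margin. Leukocyte sums stay between 1.54 and 3.56 FPKM in all 6.

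Receptors of these chemokines were mostly low. Of 23 receptor genes named, 17 were in the table, 12 of them under 1 FPKM in every library. Only 4 were tested: 1 was higher and none lower, where 5.87% of all genes tested were called higher and 13.6% lower. The receptors of the inflammatory members, Cxcr3 (0 to 0.222 FPKM over the 6 libraries), Ccr2 (0 to 0.0294 FPKM) and Ccr6 (0 to 0.0701 FPKM), were near 0, as was the CCL27 receptor Ccr10 (0 to 0.328 FPKM). Cxcr2 and Cxcr6 were not listed under these names. The exception with a rise was Ccr4, the receptor of CCL17 and CCL22, at 0, 0.180 and 0.211 FPKM in the control-labelled libraries and 2.06, 2.25 and 11.2 FPKM in the cKO-labelled ones (2.14, SE 0.51; limma adjusted p = 0.0260). The fragments behind it were 0, 24 and 28 against 280, 310 and 1637, with cKO 3 far above the others. It was not called when control 1, 2 or 3 was left out (adjusted p = 0.0767, 0.0768 and 0.0716) nor without a filter on low values (adjusted p = 0.0581) or by limma-voom (adjusted p = 0.123). Without cKO 3 its mean fell under the limit of 1 FPKM. Its ligands Ccl17 and Ccl22 reached at most 0.330 and 0.269 FPKM in a library.

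Of the CXCL12 receptors, Cxcr4 was at 3.70, 7.00 and 14.2 FPKM in the control-labelled libraries and 36.8, 37.3 and 11.3 FPKM in the cKO-labelled ones. It was high in cKO 1 and 2, while cKO 3 lay inside the control range. The log2 difference of 1.66 (SE 0.54) did not pass the test (adjusted p = 0.0684); it did without cKO 3 (2.20, adjusted p = 0.0188) and under median-of-ratios scaling (1.86, adjusted p = 0.0385) or quantile scaling (1.84, adjusted p = 0.0402). The scavenging receptor Ackr3 was at 11.9, 2.53 and 5.39 against 4.88, 4.30 and 0.797 FPKM (-0.79, SE 0.58, adjusted p = 0.365) and changed sign (0.23) without control 1 and cKO 3. So receptor RNA for CXCL12 exceeded the ligand's own level in each of the 6 libraries, on the FPKM scale that allows for gene length.

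Among 29 other chemokine ligands named, 15 were in the table, 12 of them under 1 FPKM throughout, and 3 were tested. Cx3cl1, a membrane-anchored chemokine that binds CX3CR1, rose, against the direction of the members: it was at 7.93, 6.81 and 8.32 FPKM in the control-labelled libraries and 13.8, 14.7 and 11.7 FPKM in the cKO-labelled ones. The groups did not overlap (0.73, SE 0.17; limma adjusted p = 0.0238). That call was lost without control 2 or 3 or cKO 1 or 2 (adjusted p from 0.0558 to 0.0956). Ccl25 (-0.30, adjusted p = 0.432) and Ccl21a (-0.22, adjusted p = 0.842) did not pass the test. Of 9 proteases that shed or trim chemokines, 7 were tested and Dpp4 rose, with none lower. For all genes tested, 5.87% were called higher and 13.6% lower. Dpp4 encodes the dipeptidyl peptidase that clips the N-terminus of CXCL10 and CXCL12, among others. It stood at 12.2, 15.3 and 14.6 FPKM against 25.4, 23.3 and 33.7 FPKM (0.91, SE 0.18; limma adjusted p = 0.0136), without overlap.

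**Figure D3:**
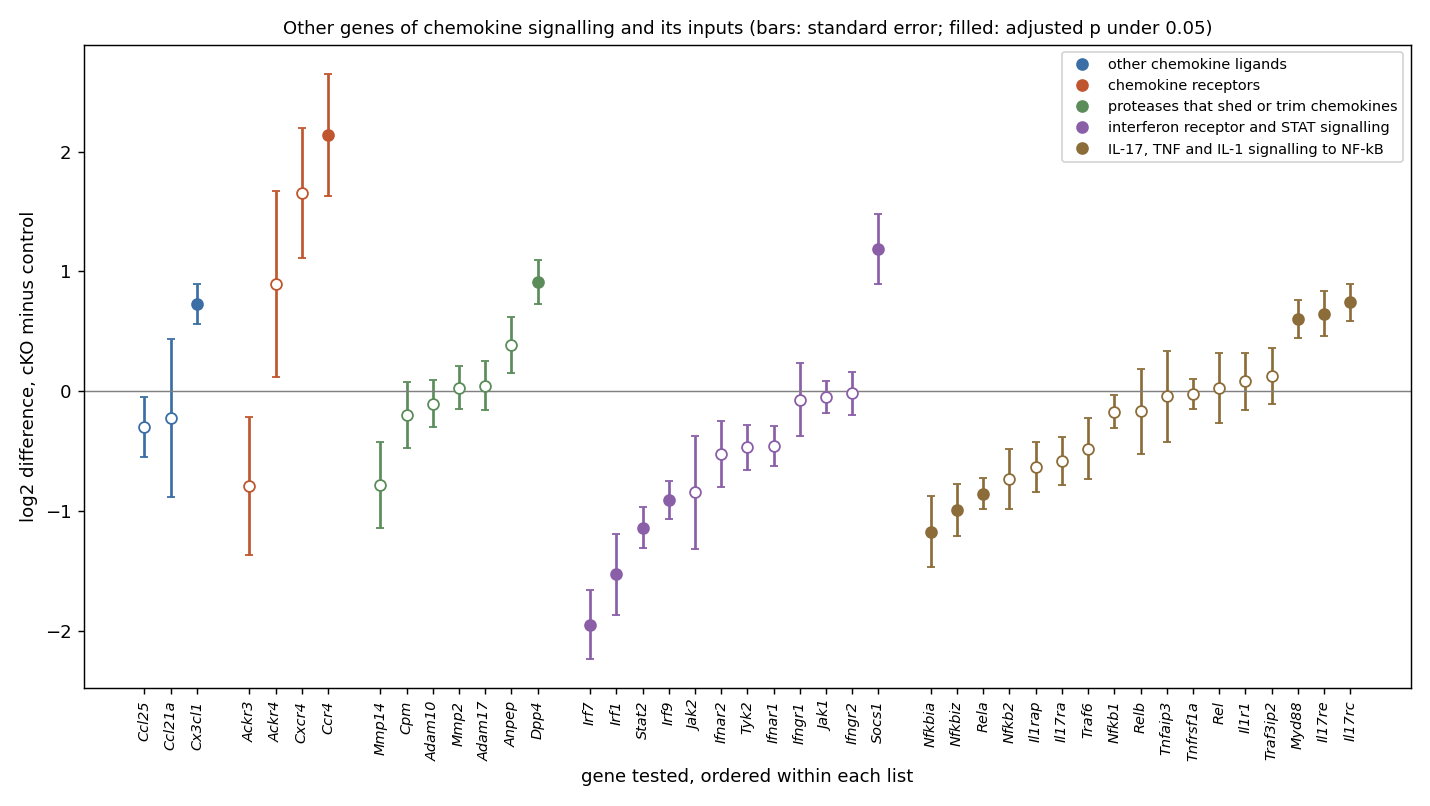
Log2 difference on the log2(FPKM + 1) scale (vertical axis, libraries labelled cKO minus control, bars are standard errors) for the tested genes of 5 lists, 1 gene left out; filled points passed the test. Of these, Ccr4, Cx3cl1, Dpp4, Socs1, Il17rc, Myd88 and Il17re lie above 0, and Irf7, Irf1, Stat2, Irf9, Nfkbia, Nfkbiz and Rela below it.

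The inputs to the inducible members were examined next. Of 13 interferon receptor and STAT signalling genes, 4 fell and 1 rose (median -0.47, against -0.17 for all genes tested). Among all genes tested, 13.6% were called lower and 5.87% higher. The transcription factor gene Irf7 was at 3.47, 6.30 and 6.99 FPKM against 0.832, 0.837 and 0.343 FPKM (-1.95, SE 0.29, limma adjusted p = 0.00450). Stat2 fell from 17.2, 13.7 and 14.9 to 6.08, 5.79 and 7.17 FPKM (-1.14, adjusted p = 0.00490), and its partner Irf9 from 14.0, 18.0 and 16.6 to 7.81, 8.14 and 8.41 FPKM (-0.91, adjusted p = 0.00912). These 3 encode factors that act on the interferon-stimulated response element. Irf1, which acts downstream of interferon-gamma, fell by 1.53 (adjusted p = 0.0191), a call lost without control 2 or 3 or cKO 2 (adjusted p = 0.0718, 0.0675 and 0.0551) and at a pseudocount of 0.01 FPKM (adjusted p = 0.0501). The feedback inhibitor Socs1 rose by 1.19 from a mean of 0.405 to 2.07 FPKM (adjusted p = 0.0291), a call lost in 11 of 16 alternatives (adjusted p up to 0.119), among them leaving out any library other than control 3. The receptor genes Ifngr1 (-0.070, SE 0.30), Ifngr2 (-0.017, SE 0.18) and Ifnar1 (-0.46, SE 0.17, adjusted p = 0.0966) did not pass the test.

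Of 20 genes of interleukin-17, TNF and interleukin-1 signalling to NF-kB, 17 were tested, and 3 rose and 3 fell. Their median was -0.17, as for all genes tested, of which 13.6% were called lower and 5.87% higher. Lower were Rela, the p65 subunit of NF-kB, at 36.4, 38.9 and 35.1 against 21.7, 19.5 and 18.6 FPKM (-0.86, SE 0.13, limma adjusted p = 0.00556), and the NF-kB target and regulator genes Nfkbiz (-0.99, adjusted p = 0.0181) and Nfkbia (-1.17, adjusted p = 0.0321). Nfkbiz lost its call without control 3 or cKO 2 (adjusted p = 0.0508 and 0.0510), and Nfkbia without control 1, 2 or 3 or cKO 2 (adjusted p from 0.0525 to 0.0904) and without a filter (adjusted p = 0.0678). Higher were the interleukin-17 receptor subunits Il17rc, at 38.7, 46.2 and 40.0 against 63.9, 63.7 and 84.5 FPKM (0.74, adjusted p = 0.0164), and Il17re (0.65, adjusted p = 0.0467), and the adaptor gene Myd88 (0.60, adjusted p = 0.0353). Il17rc lost its call without control 3 (adjusted p = 0.0613), Il17re in 10 of 17 alternatives (adjusted p up to 0.175) and Myd88 in 9 of 17 (adjusted p up to 0.0996), which for Myd88 include leaving out any 1 of the 6 libraries. The cytokine genes Tnf, Il1a and Il1b averaged under 1 FPKM. Il1a was at 0.963, 0.705 and 1.30 FPKM against 0.407, 0 and 0.0141 FPKM and was called by limma without a filter on low values (-0.81, adjusted p = 0.0399) but not by limma-voom (adjusted p = 0.0560). Nfkb1 (-0.17, SE 0.14) and Tnfrsf1a (-0.023, SE 0.12) did not pass the test.

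The falls of Cxcl10 and Ccl27a were compared across settings. Both were called with each library left out in turn, Cxcl10 at -2.41 to -2.11 (adjusted p up to 0.0117) and Ccl27a at -1.22 to -1.06 (adjusted p up to 0.0193). With both control 1 and cKO 3 left out they were at -2.35 and -1.04. Median-of-ratios scaling moved the median of all genes from -0.17 to 0.029 and gave -2.13 and -0.92. The calls over all genes, 681 higher and 1576 lower, became 1045 higher and 997 lower under that scaling.

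**Figure D4:**
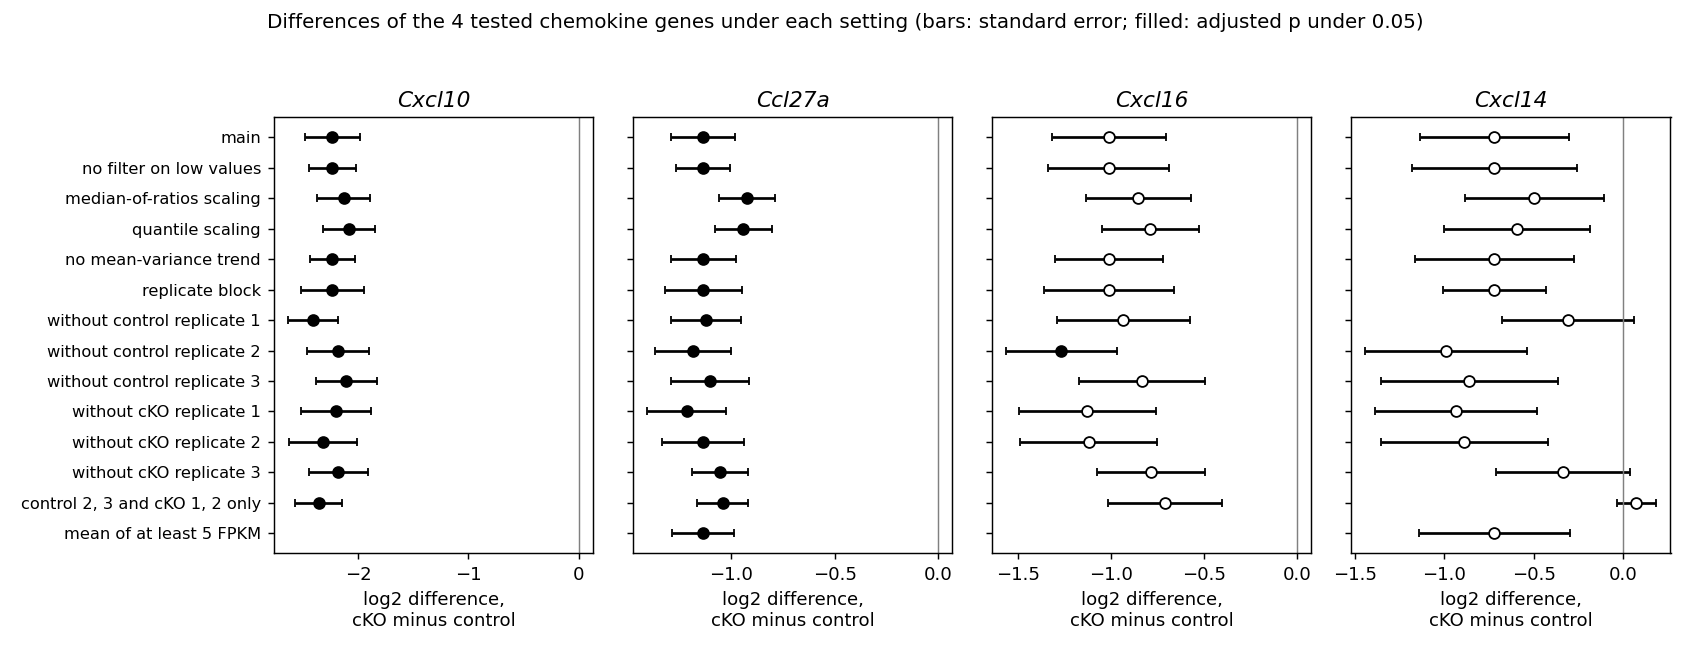
Log2 difference (horizontal axis, its own scale in each panel, bars are standard errors) of the 4 tested chemokine genes by setting (rows). Filled points passed the test. The other pseudocounts and limma-voom are not drawn. Cxcl10 and Ccl27a are filled in every row in which they were tested, Cxcl16 in the row without the library labelled control 2 and Cxcl14 in none, and Cxcl14 crosses 0 with control 1 and cKO 3 both left out.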

How the data were processed

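The authors deposited 1 table of FPKM values for 17025 genes in 6 libraries. Per the submitters' processing notes, the tools were HTSeq, HISAT2 and fastp and the build GRCm39, without versions; the annotation release and whether strand was used in counting are not stated in them, so reads of overlapping genes are uncertain. Nothing states that libraries came from separate animals, so p-values measure the spread between libraries. Members and lists were chosen with earlier results of these data known. The test used limma 3.58.1 (R 4.3.3) with a mean-variance trend and group as its term, on log2(FPKM + 1) of the 11603 genes averaging 1 FPKM or more; p-values were Benjamini-Hochberg adjusted over all of these and called under 0.05. The code was tested on simulated data. Whole fragments were recovered from the FPKM steps (smallest whole numbers within 1e-09, for 17025 genes) and give 99.5 to 99.6% of the library totals. Exact permutation tests were two-sided, on log2(FPKM + 1), for 10 members.

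The genes named are Ash2l, the members, up to 6 called genes per list, receptors of the members, Adam10 and Adam17, and the 3 genes nearest to each member that spans at least 2 in log2; genes named beyond these, among them Art3, Il11ra1, Zmynd15, the list members not called and Il1a, were chosen after their values were seen. The values of 1 listed gene are not reported here, though it is part of its list's counts and median. Alternatives were other pseudocounts, filters and scalings, no trend, a replicate block, each library left out, 4 libraries, and limma-voom on the fragments; limma-voom over genes with at least 10 fragments was added after seeing the data. Promoter sequences are RefSeq's (GRCm38.p6). Figures were drawn with matplotlib 3.10.9.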

Additional observations from a re-analysis of the deposited data

How the results depend on the processing

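Cxcl10 and Ccl27a kept their direction and call in all 16 and 17 alternatives that tested them. The 2 members called lower became 1 with a filter of 5 FPKM, which leaves Cxcl10 untested, and 2 to 3 with 1 library left out. Over all genes, 681 higher and 1576 lower became 1045 and 997 under median-of-ratios scaling and 1172 and 2400 with control 1 and cKO 3 both left out; quantile scaling gave 1028 higher. Leaving out 1 library gave 393 to 713 higher and 710 to 1453 lower. Of the listed pathway genes, 7 higher and 7 lower, leaving out 1 library gave 2 to 5 higher and 4 to 7 lower; there were 4 higher with a filter of 5 FPKM, 3 with limma-voom and 4 with limma-voom over genes with at least 10 fragments. Cxcl14 (0.075) and Ackr3 (0.23) changed sign with control 1 and cKO 3 both left out (4 libraries). Adam10 did so under median-of-ratios (0.12) and quantile scaling (0.017), without control 1 (0.11) and on the 4 libraries (0.032; -0.22 to 0.11 with 1 library left out), and Adam17 without control 2 (-0.06), without cKO 3 (-0.14) and on the 4 libraries (-0.049; -0.14 to 0.18 with 1 library left out). The cause was not tested.

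The labels name no pairing, and none by replicate number was seen: deviations of same-numbered libraries correlated at -0.31, 0.08 and -0.26. With 3 libraries a group, centred within the group, these values depend on each other and cannot exclude a pairing. With the replicate number as a block, 432 genes were higher and 893 lower, and 3 listed pathway genes were higher. Cxcl10 (adjusted p = 0.00980) and Ccl27a (adjusted p = 0.0183) stayed called under the block. Ash2l, Cx3cl1, Irf1, Socs1, Myd88 and Il17re lost their calls under it. Depth limits the 6 members under 1 FPKM on average, which had at most 114 fragments in any library.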

Other observations

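Some chemokine ligands outside the 10 members were seen in 1 library or a few with more than stray fragments. Ccl1 (12 fragments), Ccl7 (16) and Ccl22 (16) were above 0 in the library labelled control 3 only, the library that was also highest in Ccl2 (35 fragments). Ccl21a, a chemokine of lymphatic endothelium, had 126 fragments in control 2, none in control 1 or 3, and 12, 39 and 1 in cKO 1, 2 and 3. Ccl17 had 16 fragments in control 2, 14 in cKO 1 and 15 in cKO 2, and none in the other 3.

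Receptors under the limit of 1 FPKM on average also differed without overlap, which 25% of all genes did in the lower and 10% in the higher direction. Ccr7, the receptor that guides dendritic cells and T cells to lymph nodes, had 68, 26 and 38 fragments in the control-labelled libraries and 0, 6 and 0 in the cKO-labelled ones. Cx3cr1, the receptor of CX3CL1, had none in the former and 50, 29 and 19 in the latter. The decoy receptor gene Ackr2 had 4, 0 and 4 fragments against 8, 9 and 107, with cKO 3 far above the rest. These genes were named after their values were seen. Without a filter on low values limma called Ccr7 (-0.70, adjusted p = 0.0393) and not Cx3cr1 (0.32, adjusted p = 0.0548) or Ackr2 (0.35, adjusted p = 0.377). Limma-voom over genes with at least 10 fragments called Ccr7 (adjusted p = 0.0397) and Cx3cr1 (adjusted p = 0.0216) and not Ackr2 (adjusted p = 0.228).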
